A study of Drosophila melanogaster with 2 samples.

Results

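Nf-YA summits were examined at 7 genes of glial identity and of the glial blood-brain barrier in the fly embryo. The genes were repo, gcm, gcm2, moody, loco, Gli and Nrx-IV, given as a list by name. No measured value enters the rule, but the list was drawn up with earlier results of these data known. They are 7 of the 13945 protein-coding genes on the 6 chromosome arms analysed. All summits of the pooled peak list in each gene body or within 10 kb of it were taken, which gave 17 of the 3354 pooled summits. The peaks came from chromatin immunoprecipitation with sequencing (ChIP-seq) on whole embryos aged 0 to 24 h of the strain Nf-YA-GFP, which carries Nf-YA fused to eGFP, with an antibody against GFP. There were 2 biological replicates of this 1 group and no second group. The labels describe the fusion as an insertion and do not say what drives it. Embryos were taken whole, so the peaks pool all cell types of the embryo, and binding in glia and in other cells cannot be told apart.

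Nf-YA is the subunit of the trimeric factor NF-Y that contacts the CCAAT box, a promoter element usually found a short way upstream of the start site. In the fly, Gcm and its relative Gcm2 are transcription factors that switch neural precursors to the glial fate and also act in blood cells. Repo is a homeodomain factor of lateral glia that acts after Gcm. A thin sheet of surface glia seals the nervous system with septate junctions. Moody is a G protein-coupled receptor that shapes this seal. Loco is a regulator of G protein signalling in the same pathway. Nrx-IV is a transmembrane core component of septate junctions, and Gli (gliotactin) sits where 3 cells meet.

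The sequences at summits upstream of a glial start site, or in an intron of a glial gene, are shown because they carry the comparison between members. Each runs 50 bases to either side of the summit, on the strand of the gene, read from the RefSeq genome of build Release 6 (dm6). Capitals mark matches on either strand to CCAAT, or to TATAAA where it occurs. ATTGG is CCAAT read on the opposite strand.
repo, chr3R:18236032-18236132, plus strand: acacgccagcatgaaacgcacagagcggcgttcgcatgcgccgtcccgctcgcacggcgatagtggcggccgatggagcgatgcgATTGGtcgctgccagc
gcm, chr2L:9581779-9581879, minus strand: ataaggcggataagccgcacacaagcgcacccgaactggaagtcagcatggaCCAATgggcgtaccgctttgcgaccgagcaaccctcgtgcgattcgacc
moody, chrX:2050234-2050334, minus strand: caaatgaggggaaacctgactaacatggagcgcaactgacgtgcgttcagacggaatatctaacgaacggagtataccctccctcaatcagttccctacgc
Gli in its intron, chr2L:15762028-15762128, minus strand: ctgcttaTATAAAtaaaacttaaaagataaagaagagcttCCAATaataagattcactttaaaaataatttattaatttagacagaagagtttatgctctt
loco near its last start site, chr3R:22627081-22627181, minus strand: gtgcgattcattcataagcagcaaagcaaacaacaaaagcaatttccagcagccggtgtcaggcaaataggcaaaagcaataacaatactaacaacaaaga
loco in its intron, chr3R:22624913-22625013, minus strand: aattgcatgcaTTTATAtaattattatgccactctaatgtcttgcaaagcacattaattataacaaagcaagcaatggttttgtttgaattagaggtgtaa

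CCAAT lay within 50 bp of the summit at repo, at gcm and at the intronic Gli summit. At repo and gcm the neighbouring bases also fitted the full NF-Y motif, which is CCAAT with 2 purines before it and then G or C and a purine after it. The match at repo was GACCAATCG, at 18236115 to 18236123 on 3R, on the strand opposite to the gene. The match at gcm was GACCAATGG, at 9581821 to 9581829 on 2L, on the strand of the gene. The core CCAAT began 2 bp from the summit at gcm. At repo the nearer end of the core was 35 bp from the summit. No CCAAT was found within 50 bp of the summits of moody, of the upstream Gli start site or of either loco summit.

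Of the 6 summits within 500 bp of a glial start site, 3 had CCAAT and 2 had the full motif. Over all 3354 pooled summits the shares were 19.5% and 2.50%. Over the 17 summits of the 7 genes the counts were 5 and 2, the others with CCAAT being near Trx2 and in CycE. Ranked by signal, the repo summit stood 23rd and the gcm summit 55th of the 84 pooled summits with the full motif. Of the 1445 summits at promoters, meaning at most 500 bp from the start site of any protein-coding gene, 2.70% held that motif. The share with CCAAT alone was not counted over those 1445, so 3 of 6 has no like share beside it.

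A summit lay within 500 bp of a start site for 5 of the 7 genes, namely repo, gcm, moody, loco and Gli. By the same rule 12.5% of all protein-coding genes were called. In the conservative list, made by the authors from both replicates, the same 5 genes were called, against 11.6% of all genes. The own list of replicate 1 called these 5 as well, against 7.54%. The own list of replicate 2 called repo, moody and Gli, against 9.14%. Genes with more start sites were called more often, at 9.11% of genes with 1 start site, 17.6% with 2 and 36.0% with 4. The annotation gives 1 start site to repo, gcm, gcm2 and Nrx-IV, 2 to moody and Gli, and 4 to loco.

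Every one of the 7 genes had a summit in its body or within 10 kb, but 51.6% of all protein-coding genes met that rule. The conservative list gave 6 of 7 (48.2% of all genes), replicate 1 gave 6 (34.2%) and replicate 2 gave 6 (40.0%). Nrx-IV was missing from the conservative list and from replicate 1, and gcm2 from replicate 2. The searched spans add up to 0.192 Mb and held 88.4 summits per Mb, beside 25.1 per Mb over the 6 arms. The 7 genes had a median of 3 summits and all protein-coding genes a median of 1. Spans around genes hold start sites, so this density was not compared by a test. At least 4 summits, as at repo, were found at 3.85% of all protein-coding genes. For at least 3, as at gcm, gcm2 and Gli, the share was 9.75%. For at least 2, as at loco, it was 24.2%, and moody and Nrx-IV had 1. The 4 at repo include overlapping peaks nearest to another gene and thresholded in neither replicate. All 3 at gcm2 were nearest to another gene, and those near Trx2 were overlapping peaks. The summits in brwl, counted for gcm, and in CycE, counted for Gli, were also nearest to another gene. The conservative list left 2 summits at repo and either own list left 1. At gcm2 the conservative list left 1, replicate 1 left 1 and replicate 2 left 0. At gcm each of these lists left 2. At Gli the conservative list left 2 and either own list left 1. The shares of all genes with as many summits were not counted in those lists.

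**Figure D1:**
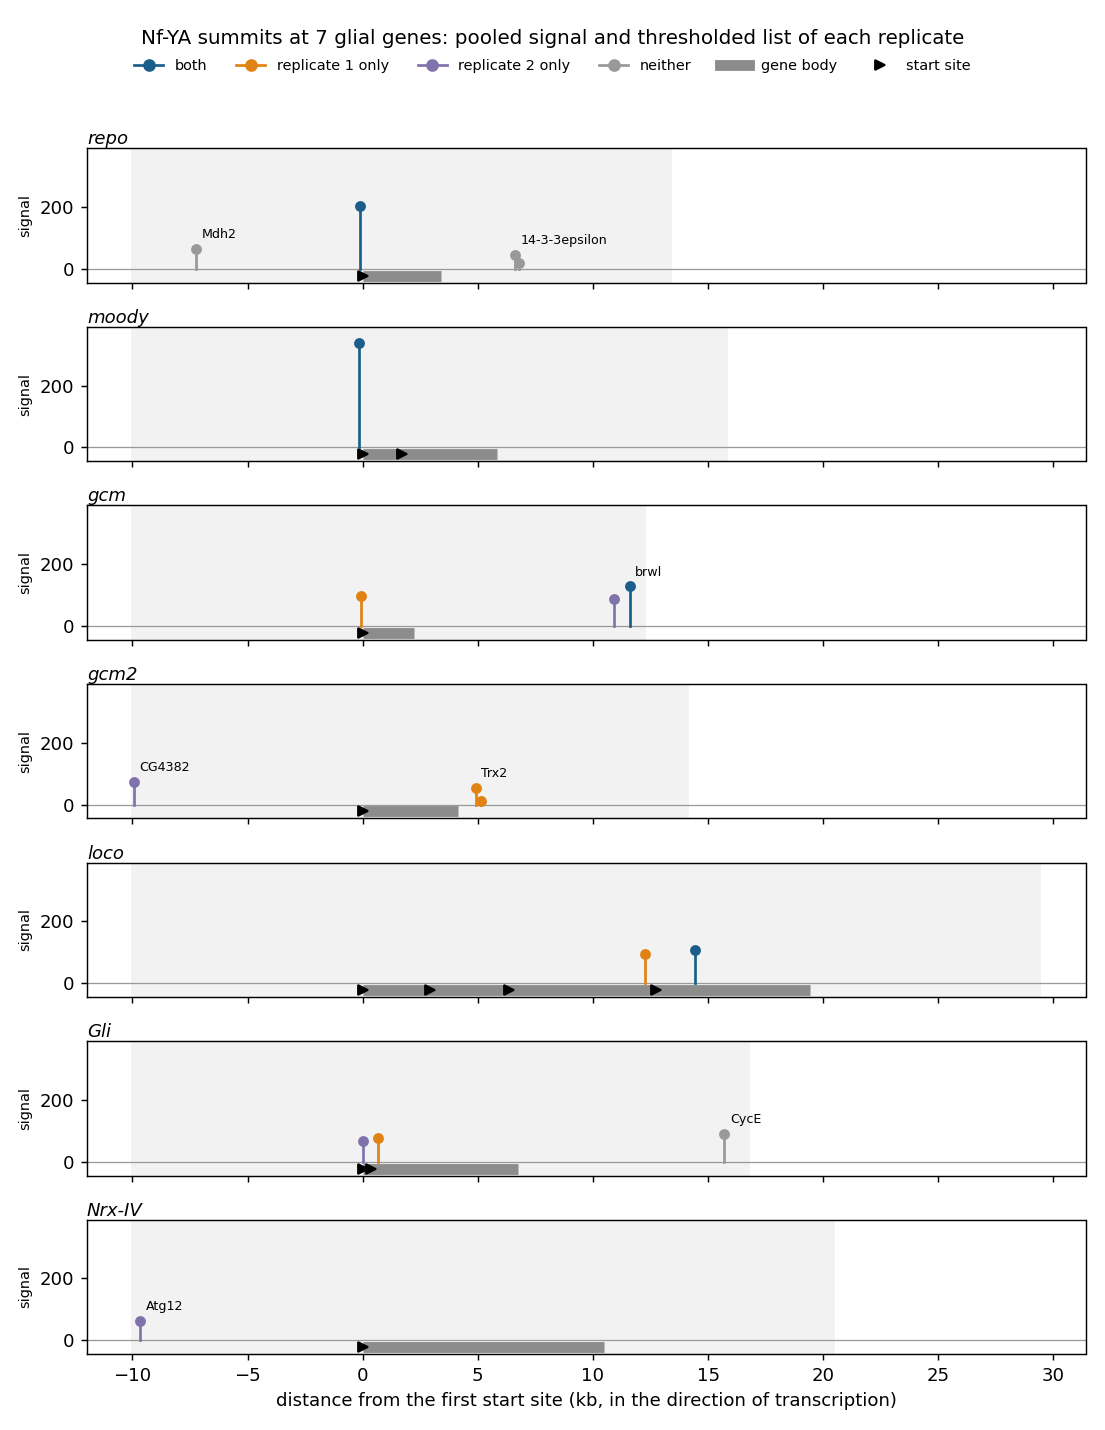
Pooled Nf-YA signal (vertical axis, the authors' scale) of the 17 summits against distance from the first start site in kb, in the direction of transcription, with 1 panel per gene. Stem colour gives the replicates whose thresholded list holds an overlapping peak, grey shading gives the searched span, and names mark summits nearest to the start site of another gene; moody (337) and repo (203) have the tallest stems, and Nrx-IV has a single stem at the edge of its span.

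The tallest peak of the 7 genes was at moody. Its summit, on X at 2050284, lay 164 bp upstream of the upstream start site of moody (gene FBgn0025631, 2044292 to 2050120, minus strand). The pooled signal was 337. The scale of the authors' peak signal is not given in the sources used here, so signal was used only to describe and rank peaks within a list. Only 3.94% of all pooled peaks and 5.95% of those at promoters were higher. Signal was 139 in replicate 1 and 194 in replicate 2, at places 164 and 143 of the ranked lists. The summits of the replicates lay 10 and 12 bp from the pooled summit. The peak was 177 bp wide, whereas 90.5% of all pooled peaks, and the other 16 at these genes, had a width of 330 bp. This stretch also lies in an intron of CG4313, a gene on the other strand that overlaps moody. No other summit was found within 10 kb of moody.

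The peak at repo stood next in signal among the glial promoters. Its summit, on 3R at 18236082, lay 110 bp upstream of the only start site of repo (FBgn0011701, 18236192 to 18239602, plus strand), in intergenic sequence. The pooled signal was 203, with 11.6% of pooled peaks higher. Signal was 76.8 in replicate 1 and 120.5 in replicate 2, at places 530 and 372. At repo and at moody, as over most of the genome, replicate 2 had the higher value. Replicate 2 was higher at 73.9% of the pooled peaks found in each replicate's ranking, with a median ratio of 1.29. The ratio was 1.57 at repo and 1.40 at moody.

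At gcm the promoter peak was lower and differed between the replicates. Its summit, on 2L at 9581829, lay 84 bp upstream of the start site of gcm (FBgn0014179, 9579498 to 9581745, minus strand), in intergenic sequence. The pooled signal was 97.6, with 42.1% of pooled peaks higher. Signal was 58.1 in replicate 1 (place 901) and 43.5 in replicate 2 (place 2213). The thresholded list of replicate 2 held 2159 peaks, and the gcm peak was not among them, while it was in the list of replicate 1. The replicate ratio of 0.749 ran against the genome-wide tendency.

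Gli had peaks at its start site and in the intron behind it, each thresholded in a different replicate. The summit at 15762734 on 2L lay 24 bp downstream of the upstream start site of Gli (FBgn0001987, 15756002 to 15762758, minus strand), in the noncoding part of the first exon. Its pooled signal was 68.1, from 18.8 in replicate 1 (place 14292) and 47.2 in replicate 2 (place 1940). The summit at 15762078 was intronic, 330 bp downstream of the other start site, with a pooled signal of 77.1. There replicate 1 had 42.6 (place 1607) and replicate 2 had 39.9 (place 2602). Neither Gli peak was thresholded in both replicates. The call of Gli in each own list therefore came from a different site.

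At loco both summits were inside the gene and toward its 3' end. loco (FBgn0020278, 22619968 to 22639387 on 3R, minus strand) spans 19420 bp and has 4 start sites. The summit at 22627131 was intronic for longer transcripts and lay 497 bp upstream of the last start site, close to the limit of 500 bp. Its pooled signal was 95.4, with 57.6 in replicate 1 (place 919) and 40.6 in replicate 2 (place 2509). It was thresholded in replicate 1 and not in replicate 2, where the summit was displaced by 90 bp. The summit at 22624963, also intronic and 1671 bp downstream of that start site, had a pooled signal of 107. It was thresholded in both replicates, with 42.8 in replicate 1 and 56.8 in replicate 2. This was the only summit beyond 500 bp of a start site that was nearest to a glial gene's own start site. At the other loco start sites only entries of the ranked pooled list below the threshold were found. Counted from the 5' end, the tallest had signals of 40.1, 16.4 and 55.7, at places 10991, 79342 and 3981 of 138875.

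**Figure D2:**
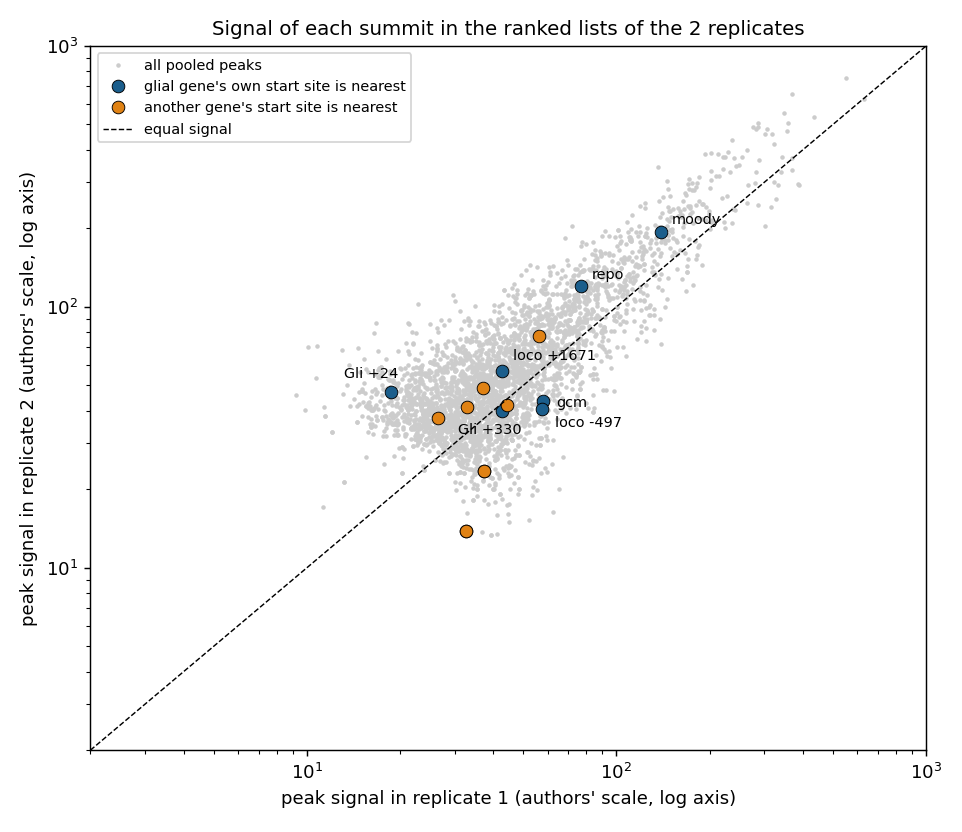
Peak signal in replicate 2 against replicate 1, both on log axes, for the 16 summits of the glial genes that each replicate's ranking covers and, in grey, for all pooled peaks so covered. The overlapping peaks near 14-3-3epsilon share the same entries, as do those near Trx2, so their points coincide but count separately among the 16. The promoter summits of moody and repo lie above the line of equal signal and those of gcm and loco (at 497 bp) lie below it, replicate 2 is the higher at 8 of the 16, and the Gli summit at 24 bp is the farthest above the line among the labelled points.

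gcm2 and Nrx-IV had no thresholded summit near their start sites. At gcm2 (FBgn0019809, 9608562 to 9612706 on 2L, plus strand) the tallest entry of the ranked pooled list within 500 bp was 464 bp upstream. It had a signal of 29.6, at place 28569 of 138875. The tallest in replicate 1 had 26.7 (place 4634) at 462 bp upstream. In replicate 2 it had 15.6 (place 41737) at 37 bp upstream. At Nrx-IV (FBgn0013997, 12146519 to 12156990 on 3L, plus strand) the tallest entry had a pooled signal of 16.1, at place 80903, 84 bp downstream. No entry of replicate 1 was within 500 bp of that start site, and replicate 2 had an entry of 11.5 at place 67076. These values are below those of the 5 called genes, of which the lowest pooled signal was 68.1.

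gcm and gcm2 are neighbours that are transcribed apart from each other, with 26817 bp between their start sites. That interval held 2 pooled summits. The gcm promoter summit was at its gcm end. The other, at 9598620, was intergenic, 9942 bp upstream of gcm2 and 16875 bp from the start site of gcm, with a pooled signal of 73.8. It was nearest to the start site of CG4382, at 2252 bp. Replicate 1 had 33.0 there (not thresholded) and replicate 2 had 41.5 (thresholded). In the own list of replicate 2 its summit was displaced by 63 bp and fell outside the limit of 10 kb.

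The promoters of the gcm relatives are shown for comparison, each from 250 bases before the start site through 50 bases from the start site on, in RefSeq Release 6. Capitals mark CCAAT in gcm and ATGCGGGT in gcm2.
gcm promoter, chr2L:9581696-9581995, minus strand: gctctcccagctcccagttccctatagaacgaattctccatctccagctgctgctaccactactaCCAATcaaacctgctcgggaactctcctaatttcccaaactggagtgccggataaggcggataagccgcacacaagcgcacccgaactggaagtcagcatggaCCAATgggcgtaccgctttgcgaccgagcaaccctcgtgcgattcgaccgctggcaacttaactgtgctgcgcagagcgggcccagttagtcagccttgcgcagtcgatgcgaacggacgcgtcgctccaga
gcm2 promoter, chr2L:9608312-9608611, plus strand: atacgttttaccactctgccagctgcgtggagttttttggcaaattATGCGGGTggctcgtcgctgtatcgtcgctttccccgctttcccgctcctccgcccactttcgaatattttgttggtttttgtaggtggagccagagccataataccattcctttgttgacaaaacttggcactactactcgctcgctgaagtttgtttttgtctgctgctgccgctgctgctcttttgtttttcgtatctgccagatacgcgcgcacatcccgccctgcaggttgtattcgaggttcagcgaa

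The gcm promoter held CCAAT at 185 and at 82 bp upstream, counted to its first base, and the gcm2 promoter held none. The gcm2 promoter held ATGCGGGT, the sequence known to be bound by Gcm proteins, 204 bp upstream. That sequence was found in 0.317% of the 19253 promoters of all protein-coding genes. It was not within 50 bp of any of the 17 summits. Its presence was read from the genome sequence and is no measurement of Gcm binding.

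Among the 12 promoters of the 7 genes, those of repo, gcm and the upstream start site of moody held CCAAT. The full NF-Y motif was found in 2 of the 12, those of repo and gcm, and in 3.42% of all promoters. CCAAT alone was found in 45.6% of all promoters. In the repo promoter the match to CCAAT began 75 bp upstream and a TATAAA began 31 bp upstream. In the moody promoter the only CCAAT was 39 bp downstream of the start site, and the sequence GAGAG, bound by the GAGA factor, occurred 4 times between 98 and 57 bp upstream. The promoter of the last loco start site held GAGAG 13 times, counting overlaps. GAGAG was found in 6 of the 12 promoters, several of them of loco, and in 33.1% of all promoters. Within 50 bp of the summit it lay at 0 of the 6 glial promoter summits. It lay at 1 of the 17 summits of the 7 genes, beside 13.8% of all pooled summits. CAGGTAG, bound by the zygotic activator Zelda, was found in 0 of the 12 and in 1.69% of all promoters. Homeodomain sequence CAATTA was in 3 of the 12 and in 24.4%, TATAAA in 2 and in 42.2%, and TATCGATA, bound by Dref, in 1 and in 7.98%. All motifs were sought on both strands, and CCAAT and CAATTA can overlap.

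The windows of 101 bases at the promoter summits of repo (67.3% GC), gcm (59.4%), Gli at its upstream start site (56.4%) and moody (50.5%) were GC-rich for this list. The median over all pooled summits was 35.6% and over promoter summits 36.6%. The intronic summits of Gli (21.8%) and loco (28.7%) were below the median. The loco summit at 497 bp was in between, at 39.6%.

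**Figure D3:**
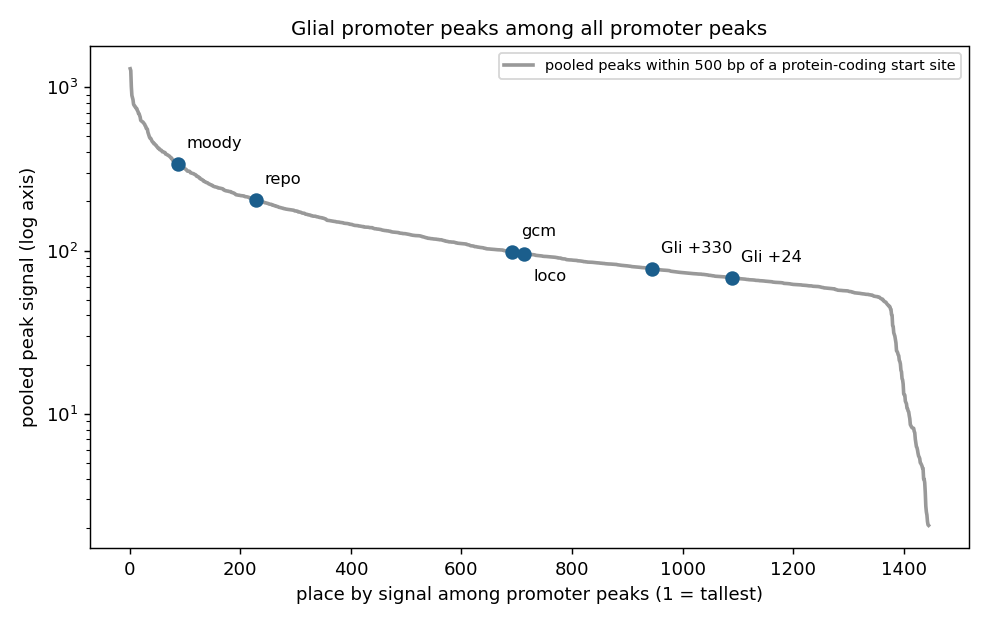
Pooled peak signal on a log axis against place by signal among the 1445 promoter peaks (summit at most 500 bp from the start site of a protein-coding gene), with the 6 glial promoter summits as points. moody and repo lie in the tall part of the curve, gcm (97.6) and loco (95.4) near its middle, and the Gli summits (77.1 and 68.1) in its lower part.

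By signal the order of the glial promoter summits was moody, repo, gcm, loco, Gli in the intron and Gli at the start site. The values of gcm and loco lay close together (97.6 and 95.4). gcm was the higher in each, at 58.1 beside 57.6 in replicate 1 and 43.5 beside 40.6 in replicate 2. The Gli summits (77.1 and 68.1) changed order between the replicates. Replicate 1 had 42.6 in the intron and 18.8 at 24 bp, and replicate 2 had 39.9 and 47.2. moody was above repo in each replicate, and repo was above the other 5 glial promoter or intronic summits in each. Median pooled signal was 96.5 over the 6 glial promoter summits and 94.7 over all promoter summits. Each of the 6 was thresholded in at least 1 replicate, while 23.4% of all promoter peaks were thresholded in neither. Of the 6, 2 were thresholded in both, those of repo and moody, and over all promoter peaks that share was 46.6%. Over all 17 summits, 4 were thresholded in both replicates and 4 in neither, beside 40.5% and 28.3% of all pooled peaks. There are only 2 values per summit, so no SD is given.

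The remaining 10 summits within 10 kb were nearest to a start site of another protein-coding gene, and 7 of them were within 500 bp of it. Their pooled signal ran from 10.4 to 128 with a median of 64.2. For the 7 nearest to the glial gene itself it ran from 68.1 to 337 with a median of 97.6. Downstream of gcm, summits at 9570154 (signal 128) and 9570821 (88.4) lay in brwl, 117 and 550 bp from its start site. The first of these was the only 1 of the 10 with a thresholded peak in each replicate (56.1 and 77.5), but the summit of replicate 1 was 123 bp away and the conservative list did not hold it. The summit 15359 bp downstream of a Gli start site, at 15747049, was 439 bp from a start site of CycE, which encodes cyclin E, in an intron of that gene. It had 44.2 in replicate 1 and 42.2 in replicate 2, for a pooled 89.9, and was thresholded in neither.

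Downstream of repo, overlapping peaks with summits at 18242801 (45.2) and 18243003 (20.2) were 114 and 316 bp from a start site of 14-3-3epsilon, which encodes a phosphoprotein-binding adaptor. Downstream of gcm2, overlapping peaks at 9613486 (53.4) and 9613689 (10.4) were 72 and 275 bp from Trx2, which encodes a thioredoxin. In each of these places both pooled peaks overlapped the same entry of each replicate. At 14-3-3epsilon the entries had 32.6 and 13.9, and at Trx2 they had 37.5 and 23.6. Upstream of repo, a summit at 18228952 (64.7) was intergenic, 7240 bp from repo and 2556 bp from Mdh2, a mitochondrial malate dehydrogenase gene. The summit nearest Nrx-IV, at 12136869 (63.7), was 9650 bp upstream of it and 98 bp from Atg12, an autophagy gene, and held TATCGATA. Replicate 1 had no overlapping entry there, and replicate 2 had 50.6.

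Near the limits of the search, the summits just inside 10 kb were those nearest to CG4382 and Atg12, at 9942 and 9650 bp from the glial gene. Those in brwl followed, at 9344 and 8677 bp from the gcm body, and that in CycE, at 8953 bp from the Gli body. Just outside, the nearest summit to the gcm body was 10759 bp away with a signal of 348. For Nrx-IV it was 14482 bp away (167) and for repo 15791 bp (442). For the limit of 500 bp at start sites, loco at 497 bp was just inside and its intronic summit at 1671 bp was the nearest outside.

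Genes of the same pathways were counted from lists that were drawn up with earlier results of these data known. The lists include the 7 glial genes, so their counts partly repeat the result above. Genes with more start sites were called more often, and the lists were not matched to all genes on that number. The shares of all genes given beside them are therefore not matched shares. Of the called genes, 2 glial transcription factors, 2 Moody signalling genes, 1 septate junction gene and 1 blood cell gene were among the 7. Of 7 glial identity transcription factors, 4 had a summit within 500 bp of a start site, against 12.5% of all genes. Beside gcm and repo these were pnt, an Ets factor downstream of Gcm and of receptor signalling, and ttk, a repressor of neuronal fate. At pnt the pooled signal was 165, from 89.6 and 70.2, at 308 bp upstream. At ttk it was 54.2, from 28.3 and 30.2, and neither replicate's own list called it. gcm2, pros and zfh1 were not called. The own list of replicate 1 called 3 of the 7 (gcm, repo and pnt), against 7.54% of all genes. That of replicate 2 called 2 (repo and pnt), against 9.14%.

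Of 7 genes of Moody signalling, 3 were called, against 12.5% of all genes. Beside moody and loco this was Galphao, a G protein alpha subunit, with a summit 6 bp from its start site and a pooled signal of 60.8. Its values were 15.3 in replicate 1 and 51.3 in replicate 2, and neither own list called it. Galphai, Gbeta13F, Ggamma1 and the kinase gene Pka-C1 were not called. The own list of replicate 1 called moody and loco (7.54% of all genes), and that of replicate 2 called moody alone (9.14%).

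Of 23 septate junction genes, 6 were called, among them Gli, against 12.5% of all genes. Tsf2, which encodes a transferrin of the junction, had the highest signal (227, from 69.6 and 144), but its summit was nearer to the start site of CG34242. bark, which acts with Gli at corners where 3 cells meet, had 136 (55.9 and 86.4) at 486 bp upstream, and own lists of both replicates called it. dlg1, a scaffold gene, had 76.3 (36.2 and 46.1) at 401 bp downstream. cold, a Ly6 protein gene, had 61.2 (27.7 and 31.3) at 70 bp upstream. Atpalpha, the sodium pump alpha subunit, named after its values were seen, had a pooled 8.15 at 339 bp upstream, while the highest overlapping entries of the replicates had 21.4 and 46.2. Neither cold nor Atpalpha was called in an own list. Of the 23 genes, 3 were called in the own list of replicate 1 (7.54% of all genes) and 4 in that of replicate 2 (9.14%). The 17 not called included Nrx-IV with its partners Cont and Nrg, and cora, vari, kune, sinu and scrib.

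None of 12 other glial markers was called, among them Eaat1, Gs2, alrm, wrapper, Mdr65 and drpr. Of 13 neuronal genes 1 was called, elav, with a signal of 289 (122 and 170.5) at 243 bp upstream. Each own list called elav alone of these, and the conservative list called 2 of the 13. Of 11 blood cell genes 3 were called, ush (102), lz (75.3) and gcm, which with gcm2 stands on this list too. The own list of replicate 1 called the same 3, that of replicate 2 called ush alone, and the conservative list called 2 of the 11. Of all genes, 12.5% were called in the pooled list, 11.6% in the conservative list, 7.54% in replicate 1 and 9.14% in replicate 2. Whether these lists differ from each other was not tested, since their members were chosen with results known.

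**Figure D4:**
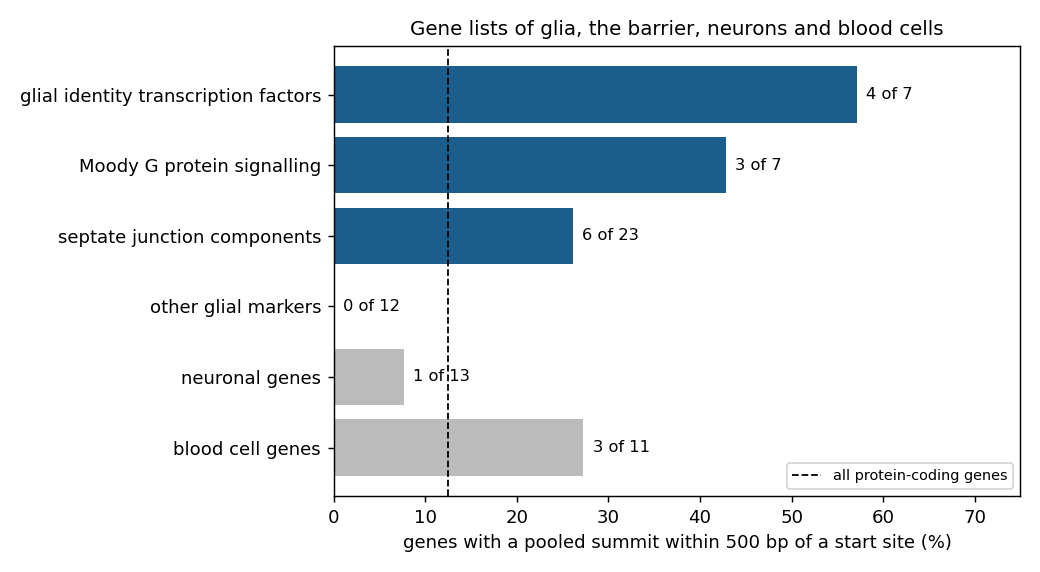
Share of each list with a pooled summit within 500 bp of a start site, in percent, with the count beside each bar, for 4 glial and barrier lists (blue) and for neuronal and blood cell genes (grey). All lists but neuronal genes and other glial markers include some of the 7 glial genes. The lists were not matched to all genes on number of start sites. The dashed line is the 12.5% of all protein-coding genes; the lists of glial transcription factors (4 of 7), Moody signalling (3 of 7), septate junction genes (6 of 23) and blood cell genes (3 of 11) reach above it, neuronal genes (1 of 13) lie below it, and other glial markers are at 0.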

How the data were processed

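ChIP-seq peak lists were used from 2 biological replicates of whole embryos. The authors deposited them in dm6 coordinates, per the file records. The aligner and peak caller are not given in the sources used here. The deposited peak signal (scale not stated) and the deposited score, which encodes the irreproducible discovery rate, are the authors' values, and the thresholded lists reach down to 830, which corresponds to a rate of 0.01. Pooled, conservative and own thresholded lists and the ranked lists were used. A control library named as a source was not analysed here. Reads were not analysed, so depth is unknown. The ranked lists of the series hold 16 columns of unnamed inputs, which were not used.

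Start sites came from Ensembl BDGP6.54, and sequence from RefSeq Release 6. A gene was called when a summit lay within 500 bp of a start site. A replicate's value is its highest ranked entry overlapping the pooled peak by at least 1 bp. Python 3.11.15, numpy 2.4.6 and pandas 2.3.3 were used. Calling was tested on simulated data. The 7 genes, the lists and the rules were chosen with earlier results of these data known. All 7 genes were named, with the genes nearest to their summits and up to 5 called genes per list. Genes that were not called were named after the calls were seen. With 1 group and no second condition, no statistical test was made. p-values are therefore not given. Alternatives were other lists, the upper 50% by signal, and other distances, windows, motif forms and overlaps.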

Additional observations from a re-analysis of the deposited data

How the results depend on the processing

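The call of 5 of the 7 genes at start sites stood at 4 or 5 with the conservative list, the upper 50% by signal, 250 bp, 1000 bp and peak overlap. The upper 50% by signal lost Gli and 250 bp lost loco. With the own list of 1 replicate it ran from 3 to 5. The 3 came without replicate 1, when gcm and loco were not called. Of all protein-coding genes, 11.6% were called in the conservative list, 7.54% in replicate 1 and 9.14% in replicate 2. That share was not counted for the upper 50%, 250 bp, 1000 bp or peak overlap. Whether the excess over all genes held under those settings is therefore not known. The number of summits within 10 kb varied more. Of 17, the conservative list left 10, the upper 50% by signal 8, a limit of 5 kb 11 and the gene bodies alone 4. Own lists gave 7 without replicate 1 and 8 without replicate 2. The limit of 20 kb gave 24 and merging of overlapping peaks 15. The median per gene, 3, was 1 in the upper 50% and in either own list, and 0 in gene bodies alone. Gene bodies alone held a summit for 2 of the 7 genes, loco and Gli, and the share of all genes was not counted for that rule. Of 5 summits with CCAAT, 2 held the full motif. Of 48 genes of the glial and barrier lists together, 13 were called, against 12.5% of all genes. These 48 include the 7 genes, of which 5 were called, and they were not matched to all genes on number of start sites. In the upper 50% by signal 7 of the 48 were called, and the share of all genes was not counted there. Own lists called 7 without replicate 1 (9.14% of all genes) and 8 without replicate 2 (7.54%). The smaller lists hold fewer peaks by construction. Depth is unknown, so no limit of detection can be given. No paired analysis was possible because there is only 1 group.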
